A study of Drosophila melanogaster x Drosophila simulans with 3 samples.

Results

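Very short exons were examined in heads of hybrid flies that carry one genome of Drosophila melanogaster and one of Drosophila simulans. An exonic region was counted as a very short exon when it had the same length in both species, was 80 bases or less, and was under 100% identical between them. These criteria use the length and identity columns of the deposited tables and no read count. They were met by 2625 of 60040 exonic regions, or 4.37%. Of 4427 regions of 80 bases or less, 1691 were left out as identical between the species and 111 as unequal in length.

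The 3 libraries were made from independent pools of 200 virgin F1 females, 1 to 1.5 days old, from D. melanogaster Berlin mothers and D. simulans C167.4 fathers. All libraries belonged to 1 group, so each comparison was made within a library, either between the alleles or between regions. Since D. melanogaster was always the mother, effects of species and of parent of origin cannot be told apart. No library of a parental strain or of the opposite cross was analysed here, and the hybrid genomic DNA control was not analysed here.

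Exons are the stretches of a gene that remain in the messenger RNA after splicing, which joins them across the removed introns. An exon whose length is a multiple of 3 can be included or skipped without moving the reading frame of what follows. In a hybrid, both alleles of a gene are exposed to the same regulatory proteins, so unequal read numbers from the alleles are used to look for differences that lie in the alleles themselves. A read can be assigned to an allele where it covers a base that differs between the species.

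The libraries held 26406916, 26601075 and 29004108 reads in replicates 1, 2 and 3, and 18157586 to 20364709 of these were assigned to an allele in each library. The very short exons took 66178 reads over the 3 libraries and 0.102% of all assigned reads. Exact matches made up 31.0% of the reads of replicate 2, which stood apart, against 63.7% in replicate 1 and 57.3% in replicate 3. The part of match quality in the results was not tested, and each result that depends on 1 library is named where it is given.

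The very short exons were 8 to 80 bases long, with a median of 62. Their identity was 62.5% to 98.75%, with a median of 96.0%, against a median of 96.71% over all regions. Identity and length together gave a whole number of differing bases for each exon, within 0.0039 of a base. One base differed in 908 exons, 2 in 609, 3 in 458 and 4 or more in 650, with at most 14. In 1791 exons the authors had altered no position of either strain's reference. Lengths that are a multiple of 3 made up 41.0% of the very short exons (1076 of 2625), against 37.0% of the 10242 equal-length, non-identical regions of 81 to 160 bases and 36.6% of the 32820 longer ones. Among the exons with enough reads for an allele test, the same share was 36.3% (65 of 179). Regions made by joining overlapping exons were 3.89% of the very short exons and 11.2% of all regions. These shares are descriptions of the annotation and carry no test.

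Exons shorter than a sequenced read were almost never seen. Reads were 54 bases long, and 894 of the very short exons were shorter than that. Of these, 13 had any read, with 15 reads in all. These 15 reads lay in exons of 45 to 53 bases, with 0 in replicate 1, 1 in replicate 2 and 14 in replicate 3, and no exon of this kind had more than 2. No read was counted in the 211 exons of 30 bases or less. The regions beside the 894 exons were read: the sum over the regions numbered directly before and after them had a median of 288.5 reads over the 3 libraries, and it reached a mean of 20 reads per library for 604 of them and of 100 for 439. Whether the unread exons were absent from the RNA was not tested.

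The detected share differed across the read length. Of the 35 exons of 53 bases, 3 had a read, with 4 reads in all. Of the 67 exons of 54 bases, 15 had a read, with 128 reads in all. The detected share was 40.5% among the 348 exons of 54 to 60 bases, 67.1% among the 604 of 61 to 70 bases and 72.9% among the 779 of 71 to 80 bases. It was 77.9% in the 883 comparable regions of 81 to 90 bases and 84.1% in the 1022 of 91 to 100 bases. Over the whole set, 1498 very short exons (57.1%) had no read in any library, against 11.4% of all other regions.

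**Figure D1:**
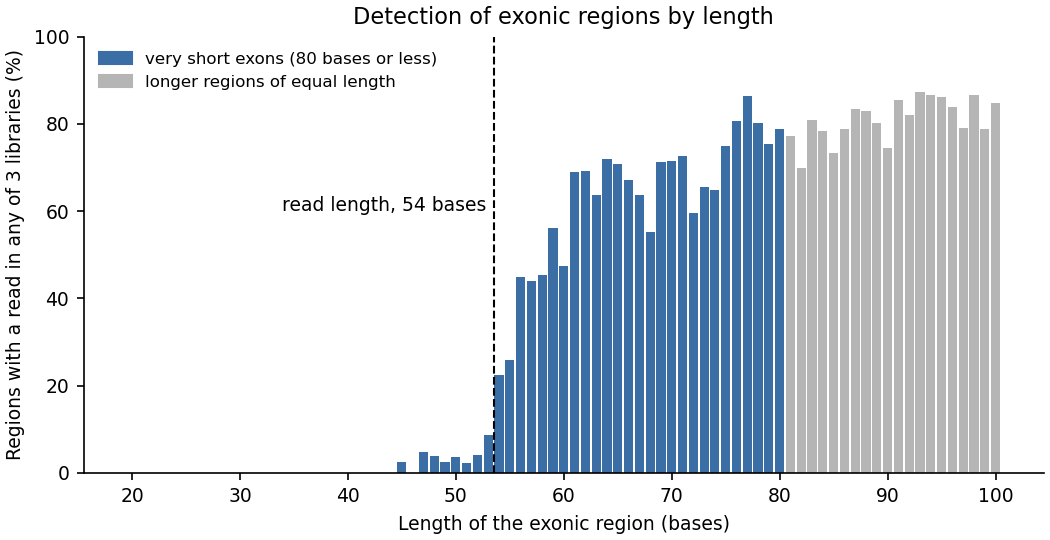
Share of exonic regions with at least 1 read in any of the 3 libraries (vertical axis, percent) by length from 20 to 100 bases (horizontal axis), for very short exons in blue and longer regions of equal length in grey. The dashed line marks the read length of 54 bases, below which 13 of 894 very short exons had a read.

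Read density was low in the very short exons and depended on what it was divided by. Per base, they had 0.141, 0.140 and 0.152 reads in replicates 1, 2 and 3, against 0.884, 0.862 and 0.967 reads in the 4660 neighbouring regions that were not very short exons themselves. The ratio was 0.159 ± 0.00278 (SD, n = 3). Within length classes, exons of 54 to 60 bases had 0.0746 of the reads per base of the regions beside them, those of 61 to 70 bases 0.108, and those of 71 to 80 bases 0.280. Counted per position at which a whole read can start, over regions at least as long as a read, the ratio was 0.746 ± 0.0141 (SD, n = 3), an alternative chosen after seeing the data. The ratio was under 1 in 3 of 3 libraries by either count, and a two-sided exact sign-flip permutation test over 3 libraries gave p = 0.25, the smallest it can give. A whole read of 54 bases has few or no start positions in exons of 80 bases or less. A low ratio per base was thus largely fixed by length, and the test of that count decides nothing.

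Allele ratios could be measured in few of the exons. Ratios were computed where the assigned reads averaged at least 20 in a library, which 179 very short exons reached (6.82%), against 55.5% of all regions. The shortest of these was 56 bases, 8 were of 60 bases or less, and 122 were of 71 to 80 bases. Most were shallow: 112 had a mean of 20 to 50 assigned reads, 32 had 50 to 100 and 35 had 100 or more. The median standard error of their log2 ratio was 0.34, against 0.19 over all 33303 tested regions. Smaller differences were therefore not detectable in most of them.

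Fewer reads were left unassigned in very short exons than in longer regions with as many differing bases. In very short exons of at least 54 bases with 1 differing base, 27.1% ± 0.273 of reads matched both species equally well and were unassigned (SD, n = 3), against 52.0% ± 0.358 in regions of 81 to 160 bases with 1 differing base. With 2 differing bases the unassigned share was 8.45% ± 0.761 in the very short exons and 37.0% ± 0.545 in the longer regions, and with 3 it was 1.73% ± 0.378 and 19.9% ± 0.179. With 4 or more it was 0.290% ± 0.0477 in the very short exons and 9.27% ± 0.312 in the longer regions, whose number of differing bases is not matched in that class. Each of these differences had the same direction in 3 of 3 libraries, with p = 0.25 in the exact sign-flip permutation test, the smallest it can give.

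The same bases went with where reads were placed. Some assigned reads were placed on one species' genome only, and the others matched both genomes, one of them better. The share placed on one genome only was 12.1% ± 0.874 of assigned reads in very short exons with 1 differing base, 11.5% ± 0.680 with 2, 42.4% ± 2.30 with 3 and 90.8% ± 2.06 with 4 or more (SDs over n = 3). In regions of 81 to 160 bases it was 3.51% ± 0.391, 9.00% ± 0.851, 16.7% ± 1.77 and 49.0% ± 3.68. In the very short exons with 1 differing base, 1 exon of 79 bases weighed heavily in the share. It alone gave 1458 reads placed on one genome only, in a class of 24840 reads of all kinds. The share without this exon was not computed. Placement on one genome only was more frequent in the very short exons in 3 of 3 libraries in every one of the 4 classes. The exact permutation p was again the smallest possible, 0.25, in each. Since a read can cover more of the differing bases in these exons, this direction was not free of length either, and the test decides nothing.

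**Figure D2:**
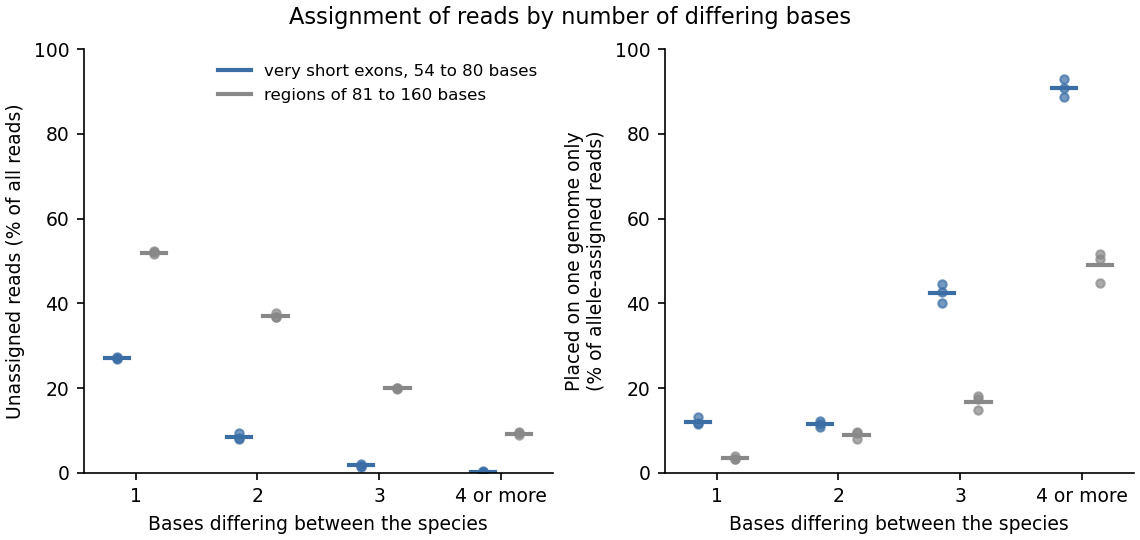
Percent of reads left unassigned (left panel) and percent of assigned reads placed on one genome only (right panel) by number of bases that differ between the species. Points are the 3 libraries and lines their means, in blue for very short exons of 54 to 80 bases and in grey for regions of 81 to 160 bases; unassigned reads were 27.1% against 52.0% at 1 differing base.

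Taken as a sum, the 179 exons gave more D. melanogaster than D. simulans reads. The D. melanogaster share was 57.5%, 58.9% and 57.4% in replicates 1, 2 and 3, or 57.9% ± 0.820 (SD, n = 3). In the 276 tested neighbours that were not very short exons, it was 54.1%, 54.2% and 54.1%, or 54.2% ± 0.0666. The exons were higher than their neighbours in 3 of 3 libraries, by 3.78 ± 0.756 percentage points (exact sign-flip permutation p = 0.25, the smallest possible). One exon, S13945_SI, held 12.0% of the assigned reads of all 179. Without it the share was 52.2% ± 0.540 in the exons, and without the regions beside it 51.5% ± 0.271 in the neighbours (SDs over n = 3), an alternative chosen after seeing the data. Without the 11 exons that had at least 98% of their reads from 1 species, it was 46.6%, 47.3% and 47.6%, or 47.2% ± 0.469. Since 10 of these 11 were picked for nearly all D. melanogaster reads, a lower share follows from the selection. No such removal was made in the neighbours.

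The kind of placement split the sum further. Among reads placed on one genome only, D. melanogaster took 68.2% ± 2.56 in the very short exons and 56.9% ± 0.272 in their neighbours (SDs over n = 3). Among reads that matched both genomes, one of them better, it took 49.6% ± 0.756 in the very short exons and 52.0% ± 0.182 in their neighbours. The first difference was positive and the second negative in 3 of 3 libraries, each with an exact permutation p of 0.25. The difference in reads placed on one genome only depended on S13945_SI: without it and the regions beside it, the share was 56.6% ± 2.86 in the exons and 52.1% ± 0.484 in the neighbours. Reads placed on one genome only were 45.0% ± 1.70 of assigned reads in the exons and 44.7% ± 3.18 in the neighbours, with the exons higher in 1 of 3 libraries.

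Allelic imbalance was then tested exon by exon. Read numbers differed between the alleles in 61 of 179 very short exons (34.1%) at an adjusted p under 0.05 (edgeR, quasi-likelihood test, Benjamini-Hochberg adjustment over all regions), and 35.6% of all 33303 tested regions were called. The D. melanogaster allele had more reads in 33 of the exons (18.4%), against 23.4% of all regions, and the D. simulans allele in 28 (15.6%), against 12.2%. The majority turned with TMM scaling, to 30 with more D. melanogaster reads and 33 with more D. simulans reads. Without the 11 nearly complete exons the numbers were 23 and 27. However, 10 of those 11 were picked for a D. melanogaster excess, so this removal lowers the first number by its selection. The share called in either direction, 34.1%, was near the background. DESeq2's Wald test called 36 of the 179 (20.1%), against 17.8% of all tested regions. All 36 were among the 61 with the same direction. Read numbers were not corrected for unequal placement of the species' reads, so a call is one on read numbers and not by itself one on expression.

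Large ratios made up a larger share of these exons than of all tested regions. An imbalance of 2-fold or more was called in 41 of 179 exons (22.9%), against 13.9% of regions of 81 to 160 bases and 9.8% of all tested regions. The median absolute log2 ratio was 0.50 in the exons, 0.33 in regions of 81 to 160 bases and 0.30 in longer regions of equal length. The exons were shallower, so depth classes were set side by side for the share called. The 2-fold share and the median ratio were not split by depth. With a mean of 100 to 300 assigned reads, 16 of 28 exons were called (57.1%), against 39.8% of regions of 81 to 160 bases and 36.8% of all regions. With 20 to 50 reads the shares were 27.7%, 18.1% and 20.7%, and with 50 to 100 reads 25.0%, 25.0% and 26.4%. With 300 or more reads they were 85.7% (6 of 7 exons), 61.2% and 55.4%. Regions are not independent replicates, and no test of these shares was made.

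Among very short exons, the share called as imbalanced was higher in classes with more differing bases. Imbalance was called in 13 of 66 exons with 1 differing base (19.7%), 10 of 34 with 2 (29.4%), 17 of 37 with 3 (45.9%) and 21 of 42 with 4 or more. In regions of 81 to 160 bases the shares were 19.3%, 18.7%, 22.6% and 33.0%. These shares were not split by depth, and the part of depth and of read placement in them was not tested.

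Nearly complete imbalance, a limit of 98% of assigned reads set with the data in view, was found in 11 of the 179 exons. D. melanogaster gave nearly all reads in 10 of them (5.59%), against 0.793% of all tested regions, and D. simulans in 1 (0.559%), against 0.21%. Regions of 81 to 160 bases had 3.28% toward D. melanogaster and 0.153% toward D. simulans. With both directions together, the shares at a mean of 20 to 50 reads were 3.57% in the exons and 3.67% in those regions. At 50 to 100 reads they were 6.25% and 3.09%, and at 100 to 300 reads 10.7% and 2.48%. At 300 or more reads they were 28.6% of 7 exons and 5.34%. These 11 exons met the minimum of reads through 1 allele, so a lopsided ratio is what the selection required, and they are described by their reads and by what lies beside them.

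The most read very short exon was one of them. S13945_SI, of 77 bases with 7 differing bases, had 1826, 2019 and 1571 reads of the D. melanogaster allele in the 3 libraries, against 0, 0 and 1 of the D. simulans allele. It had no unassigned read, and 99.98% of its reads were placed on one genome only. The regions beside it are of similar identity, at 90.60% over 415 bases and 89.78% over 313 bases, and gave D. melanogaster shares of 71.6% and 74.3%. Reads of both alleles were thus present on its sides.

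An exon of 79 bases with a single differing base, at 98.73% identity, showed the same with the fewest differences. It had 435, 520 and 503 D. melanogaster reads and no D. simulans read. Set against a floor of 3 counts over the libraries together, D. melanogaster was at least 486-fold higher. No read of it was unassigned and each was placed on the D. melanogaster genome only. The next region, of 1176 bases and 99.74% identity, was balanced, with a D. melanogaster share of 50.2%. The preceding region, also of 79 bases but identical between the species, had 185 unassigned reads.

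An exon of 80 bases with 9 differing bases had 191, 214 and 218 D. melanogaster reads and no D. simulans read, a number at least 208-fold higher with that floor. The regions on its sides gave shares of 51.5% and 47.9%. A further exon of 80 bases, with 10 differing bases, had 106, 102 and 132 D. melanogaster reads and no D. simulans read, at least 113-fold higher. Its neighbours gave 55.6% and 66.0%. In both, every read was placed on the D. melanogaster genome only, while the regions beside them held reads of both alleles.

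A further 4 exons toward D. melanogaster, of 74 to 78 bases, had no D. simulans read and 66 to 154 D. melanogaster reads over the 3 libraries. One of 63 bases with 5 differing bases, had 48, 34 and 52 D. melanogaster reads, against 0, 1 and 0 D. simulans reads.

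In 7 of the 11 nearly complete exons no assigned read was placed on both genomes, and the 11 together had 12 unassigned reads beside 9362 assigned ones. The median over the other 168 tested exons was 8.21% of assigned reads on one genome only, although 15 of them also had 90% or more. Of the 10 exons toward D. melanogaster, 7 had no altered position in either strain's reference, against 71 of the other 168 tested exons. The part of placement in these ratios was not tested.

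In 2 of the 11, most assigned reads were placed on both genomes and the imbalance was still nearly complete. An exon of 79 bases with 3 differing bases had 313, 196 and 317 D. melanogaster reads, against 0, 3 and 5 D. simulans reads. Of the reads placed on both genomes, 272, 162 and 267 were closer to D. melanogaster, against 0, 1 and 0 closer to D. simulans. Its D. melanogaster share was 99.0% ± 0.884 (SD, n = 3), against 53.5% ± 1.22 in its neighbours.

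The other was the exon toward D. simulans, of 78 bases with 1 differing base. It had no D. melanogaster read in any library, against 21, 26 and 32 D. simulans reads, of which 20, 26 and 32 were placed on both genomes. With the same floor of 3 counts, D. simulans was at least 26.3-fold higher. The sum of its neighbours was balanced, at a D. melanogaster share of 49.8% ± 2.25 (SD, n = 3). The neighbours differed from each other, with 10.5% in the region before it and 50.6% in the region after it. The region before it gave the smaller part of their assigned reads, since the sum lay close to the region after it.

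The exons named next had reads of both alleles in every library and at least 100 assigned reads over the 3 libraries. F36561_SI, of 73 bases with 12 differing bases, had 149, 161 and 190 D. melanogaster reads, against 16, 15 and 25 D. simulans reads. The share was 90.1% ± 1.57 (SD, n = 3) and the log2 ratio 3.15 ± 0.19 (SE; edgeR adjusted p 2.61e-50). Its neighbours had a share of 59.8% ± 2.09, so the exon stood above them by 2.59 ± 0.21 on the log2 scale (edgeR adjusted p 1.23e-19). Among exons within these limits, the next 4 log2 ratios toward D. melanogaster were 1.65, 1.38, 1.14 and 1.05. Of these, an exon of 67 bases, with 21, 30 and 24 D. melanogaster reads against 8, 9 and 17 D. simulans reads, had a log2 ratio of 1.14 ± 0.35 and an edgeR adjusted p of 0.0042, which was 0.12 without replicate 2 and ranged from 0.0042 to 0.15 over the alternatives.

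Toward D. simulans, the largest ratio within these limits was in S41742_SI, of 77 bases with 3 differing bases. It had 2, 4 and 8 D. melanogaster reads, against 52, 64 and 35 D. simulans reads. Its reads were 9.40% ± 8.05 D. melanogaster (SD, n = 3), and on the log2 scale the ratio was -3.38 ± 0.35 (SE; edgeR adjusted p 3.35e-19). Its neighbours leaned the same way, at 15.1% ± 2.46, and the exon did not differ from them by the test (log2 difference -0.89 ± 0.40, edgeR adjusted p 0.095).

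The most read exon toward D. simulans lay close to its neighbours. S40780_SI, of 68 bases with 8 differing bases, had 137, 125 and 98 D. melanogaster reads, against 820, 662 and 467 D. simulans reads, a share of 15.8% ± 1.52 (SD, n = 3). On the log2 scale this was -2.43 ± 0.09 (SE; edgeR adjusted p 5.10e-106). Each read of S40780_SI was placed on one genome only. The neighbours had a share of 16.4% ± 2.66, and the log2 difference from them was -0.08 ± 0.13 (edgeR adjusted p 0.73).

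The next ratios toward D. simulans within these limits were -1.37, -1.26, -1.19 and -1.07 on the log2 scale, in exons of 79, 61, 75 and 58 bases. The 79-base exon had 18, 10 and 18 D. melanogaster reads, against 44, 26 and 50 D. simulans reads, and differed from its neighbours by -0.92 ± 0.24 (SE; edgeR adjusted p 0.0021). The 61-base exon had 12, 22 and 17 D. melanogaster reads, against 41, 37 and 44 D. simulans reads, and no difference from its neighbours was called (edgeR adjusted p 0.37).

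Other deeply read exons gave smaller ratios. An exon of 75 bases with 3 differing bases had 205, 133 and 177 D. melanogaster reads, against 368, 285 and 347 D. simulans reads, with a share of 33.8% ± 1.98 in the exon and 37.6% ± 0.814 in its neighbours. A joined region of 75 bases with 1 differing base had 117, 83 and 117 D. melanogaster reads, against 168, 161 and 221 D. simulans reads, and its share of 36.6% ± 3.90 lay beside 38.0% ± 2.60 in its neighbours. In the other direction, an exon of 75 bases with 5 differing bases had 194, 243 and 183 D. melanogaster reads, against 139, 174 and 115 D. simulans reads, with a share of 59.3% ± 1.81, against 54.1% ± 2.96 in its neighbours (SDs over n = 3). In each of these 3 exons the alleles differed in edgeR, while the difference from the neighbours missed the threshold, with adjusted p-values of 0.083, 0.72 and 0.073 in the same order.

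An exon of 80 bases with 7 differing bases had 60, 52 and 57 D. melanogaster reads, against 130, 81 and 124 D. simulans reads, a share of 34.1% ± 4.37 in the exon and 41.2% ± 6.89 in its neighbours. Another 75-base exon with 3 differing bases leaned to D. melanogaster, with 217, 137 and 151 D. melanogaster reads against 79, 63 and 101 D. simulans reads. Its share of 67.2% ± 6.78, against 55.1% ± 1.05 in its neighbours (SDs over n = 3), gave a log2 difference of 0.76 ± 0.15 (SE; edgeR adjusted p 3.78e-05).

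**Figure D3:**
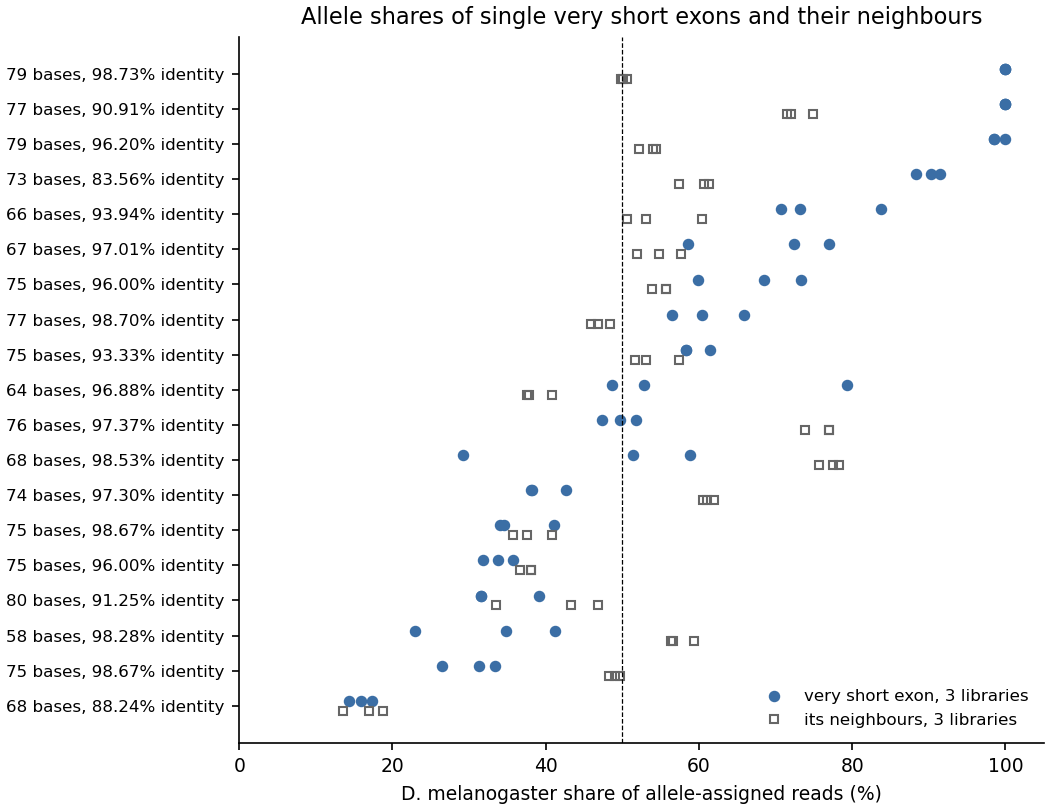
D. melanogaster share of allele-assigned reads (horizontal axis, percent) in single very short exons, each labelled by length and identity, as blue points for the 3 libraries, with open squares for the summed neighbours in the same libraries. The exons are those with the most reads among the called ones and those that differed most from their neighbours; the lowest, of 68 bases at 88.24% identity, lies on its neighbours, and the highest, of 79 bases at 98.73% identity, lies at 100% against 50.2%.

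Whether a very short exon follows the regions beside it was tested directly. For each region, the allele ratio was compared with that of the sum of the regions numbered 1 lower and 1 higher, as an interaction in edgeR's quasi-likelihood test across 30824 regions. The files do not say whether such regions belong to the same gene. Of 174 very short exons with enough reads, 49 differed from their neighbours (28.2%) at a Benjamini-Hochberg adjusted p under 0.05, and 24.3% of all regions did. The exon was more D. melanogaster than its neighbours in 25 (14.4%), against 12.3% of all regions, and more D. simulans in 24 (13.8%), against 12.0%. The nearly complete exons gave 10 of the 49, and without them 39 of 164 were called (23.8%). Those exons were picked by their ratio, and the share over all regions keeps such regions, so these shares are not like for like. In regions of 81 to 160 bases 23.8% of 3759 were called.

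The lean of an exon was also compared with that of its neighbours over the whole set. Across the 174 exons the log2 ratios of exon and neighbours correlated with Pearson's r of 0.314 and Spearman's rho of 0.429, against 0.275 and 0.354 over all 30824 regions. These are descriptions, since both values of a pair come from the same libraries and regions are not independent. In 62 of the 174 the exon and its neighbours lay on opposite sides of balance (35.6%, against 36.8% of all regions). Of these 62, 23 were called as different (37.1%, against 37.7% of all regions on opposite sides). Of 112 exons with both neighbours tested singly, 18 had both called in the same direction. Of these 18 exons, 9 were called in that direction, 9 were not called and 0 were called in the other. Over all regions with such neighbours 56.7% were called in the neighbours' direction. In 36 of the 112 neither neighbour was called, and 8 of these 36 exons were, 7 toward D. melanogaster and 1 toward D. simulans. That is 22.2%, against 25.0% of all regions between such neighbours.

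**Figure D4:**
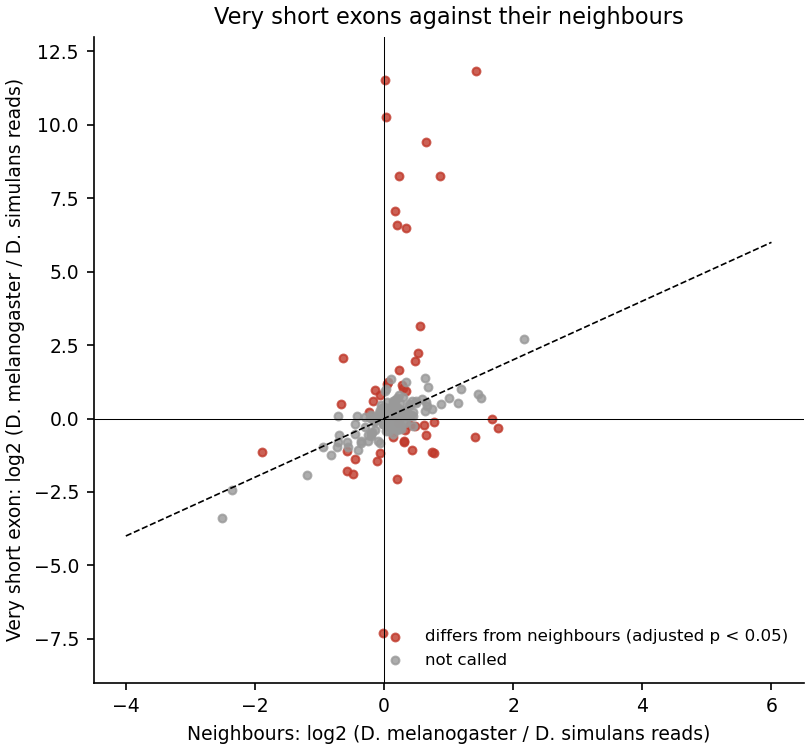
Log2 ratio of D. melanogaster to D. simulans reads (pseudocount 0.5, summed over 3 libraries) in 174 very short exons (vertical axis) and in the sum of their neighbours (horizontal axis). Red points are the 49 exons that differed from their neighbours at an adjusted p under 0.05, and the dashed line marks equal ratios.

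Within the same limits, some exons were balanced or leaned to D. simulans beside regions that leaned to D. melanogaster. An exon of 74 bases with 2 differing bases, the deepest of them, had 121, 121 and 227 D. melanogaster reads, against 196, 197 and 306 D. simulans reads. Its share was 39.6% ± 2.59, against 61.2% ± 0.734 in its neighbours (SDs over n = 3), without overlap between libraries. The log2 difference was -1.24 ± 0.13 (SE; edgeR adjusted p 1.21e-13, ranging from 1.03e-13 to 0.15 over the alternatives). It was -0.78 with neighbours within 2 numbers and -0.63 with reads placed on one genome only, where the call was lost. The assigned reads of its neighbours came from the region of 181 bases after it, since the region of 115 bases before it is identical between the species.

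An exon of 76 bases with 2 differing bases had nearly equal sums, with 68, 54 and 74 D. melanogaster reads against 69, 60 and 69 D. simulans reads. Its neighbours had a D. melanogaster share of 76.0% ± 1.86, against 49.6% ± 2.19 in the exon (SDs over n = 3), a log2 difference of -1.68 ± 0.20 (SE; edgeR adjusted p 2.58e-11). It was -0.84 with reads placed on both genomes only (edgeR adjusted p 0.0040), -1.19 with neighbours within 2 numbers and -2.30 without neighbours of 80 bases or less, in a range of 6.17e-16 to 0.0040 over the alternatives. The neighbours were not alike, with 45.7% in the region of 68 bases before it and 83.0% in the region of 190 bases after it.

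A further case, of 68 bases with 1 differing base, had 20, 18 and 14 D. melanogaster reads against 14, 17 and 34 D. simulans reads, beside a neighbour sum of 77.2% ± 1.33 D. melanogaster. Its log2 difference of -2.07 ± 0.32 (SE; edgeR adjusted p 1.28e-07) was -0.54 with an adjusted p of 0.35 when only reads placed on both genomes were used and -1.34 with neighbours within 2 numbers, in a range of 1.27e-08 to 0.35 over the alternatives. The region of 121 bases after it had 100% D. melanogaster reads, and the region of 116 bases before it had 52.0%.

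The remaining 2 of the 5 largest differences from neighbours toward D. simulans were in exons 58 and 75 bases long with 1 differing base each. The neighbours of the 75-base exon were near balance. The first had 14, 11 and 15 D. melanogaster reads against 20, 37 and 28 D. simulans reads, a share of 33.0% ± 9.28, against 57.4% ± 1.65 in its neighbours. The second had 13, 16 and 15 D. melanogaster reads against 36, 32 and 33 D. simulans reads, a share of 30.4% ± 3.49, against 49.0% ± 0.759 in its neighbours (SDs over n = 3). Their log2 differences were -1.51 ± 0.28 and -1.13 ± 0.27 (SE), with edgeR adjusted p-values of 5.27e-06 and 0.00044.

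Among exons under the same limit of 100 assigned reads, the next differences from neighbours toward D. melanogaster after F36561_SI were smaller. An exon of 66 bases with 4 differing bases had 60, 53 and 67 D. melanogaster reads, against 22, 22 and 13 D. simulans reads. Its share was 75.9% ± 6.94, against 54.7% ± 5.07 in its neighbours (SDs over n = 3). The log2 difference of 1.40 ± 0.31 (SE; edgeR adjusted p 0.00020) was 0.98 with an adjusted p of 0.064 without replicate 3, in a range of 1.26e-06 to 0.064 over the alternatives, and 2.68 with reads placed on one genome only. Exons of 64, 67 and 77 bases with differences of 1.19, 0.86 and 0.76 lost the call without replicate 2, at edgeR adjusted p-values of 0.21, 0.24 and 0.081, in ranges with highest values of 0.21, 0.24 and 0.30 over the alternatives. The 67-base exon also lost it without replicate 1 (0.13) and the 77-base exon without replicate 3 (0.10).

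Values on the sides of the length limit are given without a test. The 3 exons of 80 bases with the most reads had 623, 536 and 504 assigned reads and D. melanogaster shares of 100%, 52.1% and 33.5%. The 3 regions of 81 bases with the most reads had 532, 389 and 196 assigned reads and shares of 29.1%, 44.5% and 42.3%.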

How the data were processed

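Per the labels' protocols, polyadenylated head RNA was fragmented, copied with random hexamers and sequenced as 54-base paired ends, 1 lane per replicate. The deposited tables hold raw counts per exonic region in 10 classes, 2 unassigned and 4 per allele, per the file headers. The submitters' processing notes name Bowtie. For its version and settings, the build and the unit counted (reads or pairs), the answer is not given in the sources used here. The deposited columns also include percent identity, percent of altered positions and a coverage signal for each region. These were identical in the 3 tables. The deposited tables pair no region identifier with a gene or position, so regions are given by length and identity and 2 identifiers are printed per direction.

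The 4 classes of each allele were summed. Regions with a mean of at least 20 assigned reads per library were tested with edgeR 4.0.16 (R 4.3.3; quasi-likelihood F test, 6 allele columns, replicate as block, 1 library size for both alleles). The block follows from both alleles sharing an RNA pool. Adjustment (Benjamini-Hochberg) covered all 33303 regions. The neighbour test used 12 columns with library by region as block, over 30824 regions whose sums overlap between adjacent regions. Positive log2 values mean more D. melanogaster reads. A standard error is the log2 value over the root of its F. On simulated data, 38 of 50 regions altered 2-fold were recovered in the imbalance test of 33303 regions and 31 of 50 in the neighbour test of 30824. Altered regions were drawn from all regions of each test, with 1 common dispersion. The 33303 regions had a median of 120 assigned reads per library, against 38 in the tested very short exons. Recovery in the very short exons alone was not measured. The design leaves 2 and 4 residual degrees of freedom per region. To these edgeR added a median of 776 and 87.0 degrees of freedom from variation shared over all regions. Small p-values thus rest largely on that sharing. DESeq2 1.42.0 was an alternative. Regions named in the text are the 5 per direction with the largest ratio (called, same direction in 3 libraries, at least 100 assigned reads, each allele read in every library), the 5 per direction and 5 overall with the most reads, the 5 per direction differing most from neighbours under the same read limits, the 3 per direction with no read of the other allele, and 3 on each side of the length limit. The exons nearly complete by the 98% limit that were described outside these lists were chosen after their values were seen. The members, limits and lists were chosen with earlier results of these data known. Reads carried no molecular identifiers, so floors cover counting error alone.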

Additional observations from a re-analysis of the deposited data

Results flagged for a closer look

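Unassigned reads entered no allele comparison. In 14 very short exons of 69 to 80 bases, 11 of them with 1 differing base, unassigned reads averaged at least 20 per library while assigned reads were too few for a test. They held 853, 894 and 968 unassigned reads in replicates 1, 2 and 3, against 314 assigned reads over the 3 libraries.

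The deposited coverage signal, whose origin is not stated, was not used in a comparison. Of the 881 very short exons that were shorter than a read and had no read in the 3 libraries, 418 had a D. melanogaster coverage above 0 and 454 a D. simulans coverage above 0. The shortest of those with D. melanogaster coverage was 27 bases. Its median among the 418 was 5.08, against 8.10 over the very short exons at least as long as a read.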

How the results depend on the processing

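Of 297 values of 31 results on 26 named exons under the alternatives, 279 kept their direction and their side of the threshold, 18 kept the direction and lost the call, and none was reversed. The number of imbalanced exons was 61 of 179. It was 36 with DESeq2, 97 with a minimum mean of 10 reads, 30 with 50, 119 with no filter, 32 with reads placed on both genomes, 32 with reads placed on one genome, 2 at a length limit of 60 bases and 197 at 100 bases. These alternatives test other numbers of exons, apart from DESeq2. Without 1 replicate 49 to 56 exons were called (28.3% to 30.3%, against 27.9% of all tested regions). With TMM scaling 63 were called (35.2%, against 34.6%). The D. melanogaster part of calls was then 47.6%, against 54.1% without scaling. Over all regions that part was 53.2% with scaling, against 65.8% without. Of the 61 calls, 52 were made without the replicate block, in 29.1% of the exons, against 24.1% of all regions. In the neighbour test 39 of the 49 calls were made without it, in 22.4%, against 14.5%. The number differing from neighbours was 86 of 327 with a minimum of 10 reads (26.3%, against 22.5% of all regions). With a minimum of 50 it was 25 of 65 (38.5%, against 28.2%). It was 22 of 115 with reads placed on both genomes (19.1%, against 12.9%). With reads placed on one genome it was 24 of 50 (48.0%, against 33.2%). Without 1 replicate it was 37 to 41 (21.9% to 23.0%, against 18.2% to 18.4%).

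The D. melanogaster share of 57.9% was 52.8% without the 10 most read exons, 52.2% without the most read one, 50.1% at a limit of 60 bases, 55.8% at 100 bases, 49.6% and 68.2% with reads placed on both genomes and on one, 56.6% with the last and without the most read exon, and 57.5% to 58.2% without 1 replicate. The reads per base relative to neighbours, 0.159, were 0.121 without the 10 most read exons, 0.0213 at 60 bases, 0.383 at 100 bases, 0.746 per start position, 0.186 over exons at least as long as a read, and 0.158 to 0.161 without 1 replicate. Depth limits most allele ratios to differences well above the median standard error of 0.34. The cause of these changes was not tested.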
